A study of Homo sapiens with 6 samples.

Results

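The integrin subunits of epithelial cells described here are the alpha chains ITGA2, ITGA3, ITGA5, ITGA6 and ITGAV and the beta chains ITGB1, ITGB4, ITGB5, ITGB6 and ITGB8. All array probes that the platform annotation maps to a single symbol, that of any of these 10 genes, were taken. This gave 23 of the 47322 probes on the array. They were measured in T47D, an established line of luminal breast cancer cells that had been given a miR-489 mimic (3 arrays) or a control scramble siRNA (3 arrays) by transfection 72 h before the RNA was taken. Both groups grew in the same serum-supplemented medium and differ only in the transfected RNA, as far as the labels say, and no untransfected cells were analysed here. The labels do not say whether the replicates came from separate cultures, so p-values measure the spread between these arrays, which may be technical.

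Integrins are receptors that span the cell membrane as pairs of 1 alpha and 1 beta chain and fasten cells to the proteins of the extracellular matrix. Outside the cell the pair decides which matrix protein is bound, and inside the cell the beta tail recruits talin and kindlin, which couple the receptor to actin and to focal adhesion kinase. In breast epithelium the laminin receptors, alpha3 with beta1 and alpha6 with beta1 or beta4, hold the cells to the basement membrane. The pair alpha2 with beta1 binds collagen, and alpha5 with beta1 binds fibronectin.

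miR-489 is a small regulatory RNA encoded inside the calcitonin receptor gene, and such RNAs pair with messenger RNAs mainly through the seed, which is bases 2 to 8. The mature 3p arm is shown here because it is the form of the miRNA the RefSeq table holds, although the labels name neither the arm nor the sequence of the mimic. In the sequence from RefSeq (GRCh38.p14, chr7:93483947-93483968, minus strand) the seed is in capitals.
hsa-miR-489-3p: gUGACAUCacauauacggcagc
Messenger sequences of the integrins were not used here, so no matches to this seed were sought.

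The scale of the values is as follows. An intensity is the deposited brightness of a probe, and a log2 level is that intensity after background correction and quantile normalization. A probe was detected on an array at a detection p below 0.01. Fold changes are mimic over scramble control, with standard errors from limma, and a probe was called, and is said to have risen or fallen, at a Benjamini-Hochberg adjusted p below 0.05 over all 17104 kept probes. Levels of different probes are not set against each other, because probes differ in brightness for reasons other than the amount of RNA. RNA was pooled over many cells, so fewer cells with a transcript and less of it per cell cannot be told apart.

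Mean intensity over all probes ran from 543 to 619 on the mimic arrays, with 16452 to 17074 probes detected, and from 526 to 571 on the scramble control arrays, with 16910 to 17346 detected. All 8 listed luminal markers were detected on all 6 arrays, with 2 higher (EPCAM, KRT8) and 3 lower (KRT19, ESR1, FOXA1) with the mimic. The sum of these markers' normalized levels, on a linear scale, was 52142 to 54716 on mimic arrays and 61754 to 63175 on scramble control arrays. KRT19 had the highest level (mean log2 14.44 with the mimic and 14.94 in the scramble control) and weighs most in this sum. The sum therefore does not show a fall of the luminal markers as a group. The basal keratins KRT5 and KRT14 and all 4 endothelial markers were detected on no array. Of the other basal markers, the brightest MYLK probe was detected on 1 mimic array, and KRT17 and TP63 had no named probe. Among 5 leucocyte markers the defining genes PTPRC and CD3E were detected on no array and CD79A on 1 scramble control array. CD14 and CD68 were detected on all 6 and fell. The sum over the leucocyte markers was 506 to 525 on mimic arrays and 765 to 918 on scramble control arrays, and its part in the integrin results was not tested. Of 7 fibroblast markers, VIM and COL1A1 were detected on all arrays and not called, and the other 5 were detected on none. Of 4 megakaryocyte and platelet markers, PPBP was detected on all arrays and not called, and the other 3 were detected on none.

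Most of the measured integrin subunits were lower with the mimic, and 1 was higher. Of the 23 probes, 12 were detected on all 6 arrays and 11 on none, so no probe entered the comparison through 1 group alone. The 12 detected probes covered 8 genes. Among them 7 probes fell, 1 rose and 4 were not called. Over all kept probes 33.9% were called, 16.3% as falls and 17.6% as rises. Several probes share a gene and are not independent. Taking for each gene its kept probe with the highest mean, 5 of 8 integrin genes fell (ITGA2, ITGA5, ITGB1, ITGB4, ITGB5), ITGA6 rose, and ITGA3 and ITGAV were not called, against 17.3% of all 10503 genes that fell and 18.4% that rose. The median log2 fold change was -0.43 over the 12 integrin probes and 0.02 over all kept probes. On 9 of the 12 probes the mimic and scramble control arrays did not overlap, and 48.8% of all kept probes were separated in this way. On the gene level 6 of 8 integrins were separated, against 51.4% of all genes. The counts are small and depend on the processing. With median scaling in place of quantile normalization 3 integrin probes fell. Of the probes taken for the genes, those of ITGA2 (limma adjusted p = 0.0681), ITGB1 (0.0622) and ITGB5 (0.0539) were then not called. Those of ITGA5 and ITGB4 still fell, and that of ITGA6 still rose. Without any 1 array 3 to 5 integrin probes fell (3 without mimic array 1, scramble control array 1 or scramble control array 3, 4 without mimic array 2). Array 2 of the mimic correlated less with the other mimic arrays (r = 0.982 with each) than these did with each other (0.993), and without array 2 of both groups 4 integrin probes fell and 0 rose. No integrin probe changed the sign of its fold change in any of the 204 values recomputed under other settings.

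**Figure D1:**
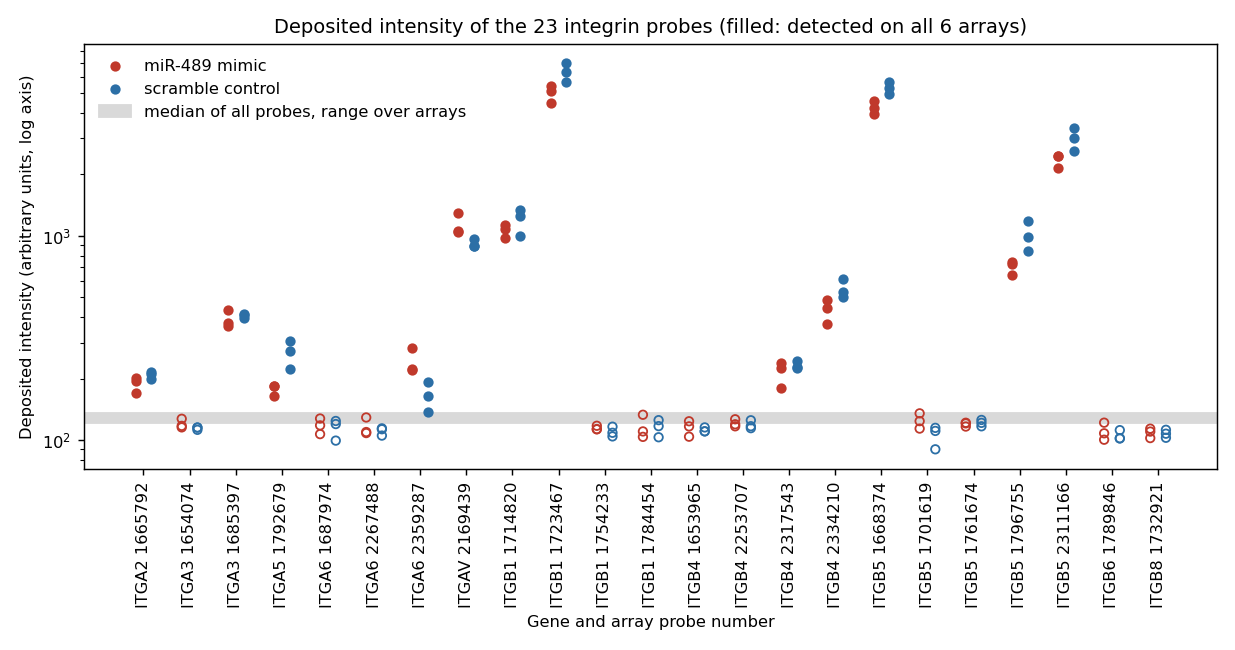
Deposited intensity (arbitrary units, log axis) of each of the 23 integrin probes on the 3 mimic arrays (red, left) and the 3 scramble control arrays (blue, right), with filled points for probes detected on all 6 arrays. The grey band is the range of the 6 arrays' median intensities, and the 11 open probes lie at or near it, between 90.0 and 135 units.

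ITGA5 fell. It encodes the alpha5 chain, which pairs with beta1 to form the main fibronectin receptor. Its single probe had log2 levels of 6.05, 6.38 and 6.05 on the mimic arrays and 7.00, 7.80 and 7.51 on the scramble control arrays. Each mimic array lay below each scramble control array, and the scramble control arrays were spread more widely (SD 0.40 against 0.19 in mimic arrays). The log2 fold change was -1.28 ± 0.21 (SE, n = 3 per group, limma adjusted p = 0.00324), a 2.43-fold fall, and 4.91% of all kept probes had a larger absolute change. The call held under all 17 alternatives, but the size moved: the log2 fold change was -0.68 without background correction and -0.46 in the authors' processed values, where the ITGB5 probe ILMN_1796755 had a larger fall (-0.59). In the deposited intensities the ITGA5 probe read 183, 183 and 164 units with the mimic and 222, 306 and 272 units in the scramble control, beside array medians of 121 to 135.

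ITGA2, the alpha2 chain of the collagen receptor, was lower by a smaller step. Its log2 levels were 6.33, 6.58 and 6.18 with the mimic and 6.92, 6.73 and 6.85 in the scramble control, with no overlap. It fell with a log2 fold change of -0.47 ± 0.14 (limma adjusted p = 0.0372). This call was fragile. It was lost when mimic array 1 (adjusted p = 0.104) or 3 (0.127) or scramble control array 1 (0.0872), 2 (0.0602) or 3 (0.0974) was left out, and in the authors' processed values, where the log2 fold change was -0.15 (adjusted p = 0.0900). In the deposited intensities the ITGA2 probe read 200, 195 and 170 units with the mimic and 215, 198 and 210 units in the scramble control. Before normalization mimic array 1 thus lay above scramble control array 2.

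ITGA3, whose alpha3 chain pairs with beta1 to bind laminins, was not called. Its detected probe had log2 levels of 7.86, 8.37 and 8.04 with the mimic and 8.25, 8.40 and 8.40 in the scramble control, and the groups overlapped through mimic array 2. The log2 fold change was -0.26 with a 95% interval of -0.62 to 0.11 (limma adjusted p = 0.246), which leaves room for a fall as large as that of ITGA2. ITGAV, the alphaV chain that serves several beta partners and binds vitronectin and latent TGF-beta, had levels of 9.97, 9.89 and 9.86 with the mimic and 9.66, 9.77 and 9.90 in the scramble control. Here the groups overlapped through scramble control array 3, and the log2 fold change was 0.13 with an interval of -0.16 to 0.41 (adjusted p = 0.461).

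ITGA6 was the only called probe that was higher with the mimic. Its alpha6 chain pairs with beta1 or, in hemidesmosomes, with beta4, and binds laminins. The detected probe had log2 levels of 7.24, 6.94 and 6.94 on mimic arrays and 6.60, 5.38 and 6.10 on scramble control arrays. The groups did not overlap, but the scramble control arrays ranged over more than a log2 unit, with array 2 lowest. ITGA6 rose with a log2 fold change of 1.01 ± 0.28 (limma adjusted p = 0.0264), a 2.02-fold difference. The change was 0.69 without scramble control array 2, where it was still called, and the call was lost without mimic array 1 (adjusted p = 0.0838) or 3 (0.0637) or scramble control array 3 (0.0622). In the authors' processed values the log2 fold change was 0.30, and without background correction it was 0.47. In the deposited intensities the probe read 282, 223 and 219 units with the mimic and 192, 137 and 165 units in the scramble control.

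**Figure D2:**
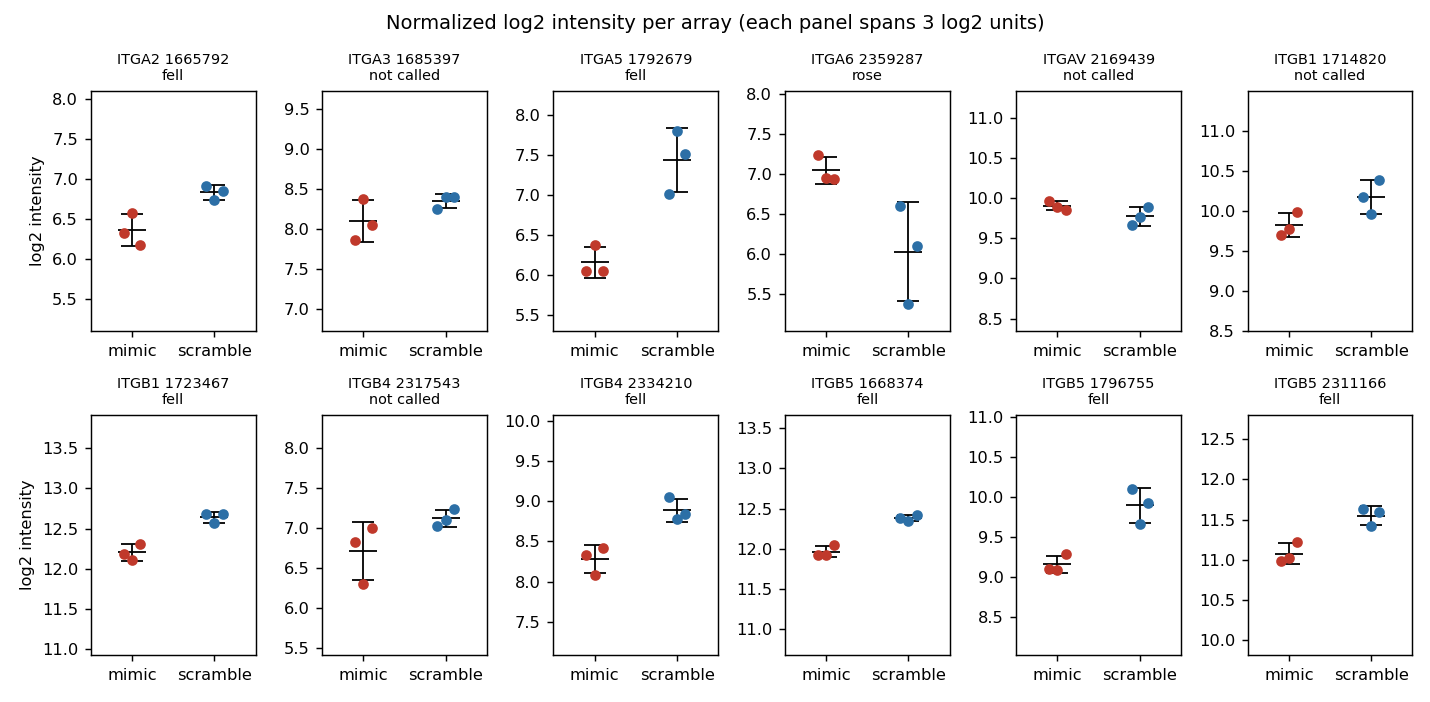
Normalized log2 intensity of the 12 detected integrin probes on each mimic (red, left) and scramble control array (blue, right), with the mean and SD of 3 arrays in black. All panels span the same number of log2 units, and the separation is widest for ITGA5, with means of 6.16 with the mimic and 7.44 in the scramble control.

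The promoters of ITGA5 and ITGA6 are shown because one of these genes fell and the other rose, and both were called. Each run is the stretch of 250 bases before the annotated start, from RefSeq on GRCh38.p14, read 5′ to 3′ on the strand of the gene. ITGA5 lies at chr12:54419267-54419516 (minus strand) and the first of the ITGA6 starts at chr2:172427086-172427335 (plus strand). The capitals mark matches, on either strand, to the motifs searched, which were the GC box GGGCGG, the AP-1 motif TGANTCA, the E-box CACGTG and the TATA box TATAAA.
ITGA5: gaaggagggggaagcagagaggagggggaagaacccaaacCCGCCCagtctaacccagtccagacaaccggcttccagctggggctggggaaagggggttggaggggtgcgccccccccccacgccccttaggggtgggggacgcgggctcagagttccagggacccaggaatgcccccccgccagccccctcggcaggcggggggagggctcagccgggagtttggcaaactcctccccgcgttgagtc
ITGA6: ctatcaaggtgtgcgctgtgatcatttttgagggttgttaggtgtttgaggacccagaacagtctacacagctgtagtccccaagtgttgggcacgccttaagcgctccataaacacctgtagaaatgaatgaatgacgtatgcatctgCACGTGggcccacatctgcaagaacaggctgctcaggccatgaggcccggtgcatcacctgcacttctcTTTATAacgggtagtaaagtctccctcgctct
The ITGA5 window held 1 GC box and had a GC content of 70.0%. The ITGA6 window held no GC box, 1 E-box and 1 TATA box at a GC content of 50.8%. The window of its second annotated start held 3 GC boxes at a GC content of 71.6%. Over all 35116 windows of that length, 42.6% held a GC box, 6.57% an AP-1 motif, 6.34% an E-box and 10.7% a TATA box. No window of the 8 integrin genes with an entry held the AP-1 motif. These matches are descriptions of sequence, and none of them is a measured binding site.

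All 3 beta chains that could be measured were lower with the mimic, each on at least 1 probe. ITGB1 encodes beta1, the partner of alpha2, alpha3, alpha5, alpha6 and alphaV. Its probe ILMN_1723467 had log2 levels of 12.19, 12.11 and 12.31 with the mimic and 12.68, 12.56 and 12.68 in the scramble control, with no overlap. It fell with a log2 fold change of -0.44 ± 0.12 (limma adjusted p = 0.0267), and the authors' processed values gave the same size, -0.44. The probe ILMN_1714820, annotated to another ITGB1 transcript, had levels of 9.69, 9.77 and 9.98 with the mimic and 10.17, 9.96 and 10.39 in the scramble control. Mimic array 3 overlapped scramble control array 2 there, and the log2 fold change of -0.36 ± 0.16 was not called (adjusted p = 0.110). The ITGB1 call was lost without mimic array 1 (adjusted p = 0.0802) or 2 (0.0606), with scramble control array 1 (0.0597) or array 3 (0.0806) left out, and under median scaling (0.0622).

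ITGB4 encodes beta4, which pairs only with alpha6 and anchors hemidesmosomes to keratin filaments through a long cytoplasmic tail. Its probe ILMN_2334210 had log2 levels of 8.34, 8.08 and 8.42 with the mimic and 9.05, 8.77 and 8.84 in the scramble control, without overlap. It fell with a log2 fold change of -0.61 ± 0.15 (limma adjusted p = 0.0149), and that call held under all 17 alternatives, at -0.40 in the authors' processed values. The second detected ITGB4 probe, ILMN_2317543, had levels of 6.83, 6.30 and 7.00 with the mimic and 7.03, 7.10 and 7.24 in the scramble control. It was separated by a small margin, with mimic array 2 lowest, and its log2 fold change of -0.41 was not called (95% interval -0.85 to 0.03, adjusted p = 0.131). Without mimic array 2 the change was -0.21.

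ITGB5 encodes beta5, which pairs with alphaV to form a vitronectin receptor. It had 3 detected probes, all annotated to the same transcript, and all of them fell. Probe ILMN_1796755 had log2 levels of 9.10, 9.08 and 9.29 with the mimic and 10.10, 9.67 and 9.93 in the scramble control, a log2 fold change of -0.74 ± 0.15 (limma adjusted p = 0.00747) that was called under all 17 alternatives. Probe ILMN_2311166 had levels of 10.98, 11.02 and 11.22 with the mimic and 11.63, 11.41 and 11.60 in the scramble control, a change of -0.48 ± 0.13 (adjusted p = 0.0269). Probe ILMN_1668374 had levels of 11.92, 11.93 and 12.04 with the mimic and 12.38, 12.35 and 12.42 in the scramble control, a change of -0.42 ± 0.12 (adjusted p = 0.0257). On each of these probes all mimic arrays lay below all scramble control arrays. The calls of ILMN_1668374 and ILMN_2311166 were not stable: that of ILMN_1668374 was lost without any 1 array (adjusted p from 0.0502 to 0.0854) and with median scaling (0.0539), and that of ILMN_2311166 without mimic array 1 (0.0930) or 2 (0.0576), without scramble control array 1 (0.0658) or 3 (0.0823) and with median scaling (0.0651). Whether the ITGB5 probes differ from each other in size of change was not tested.

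**Figure D3:**
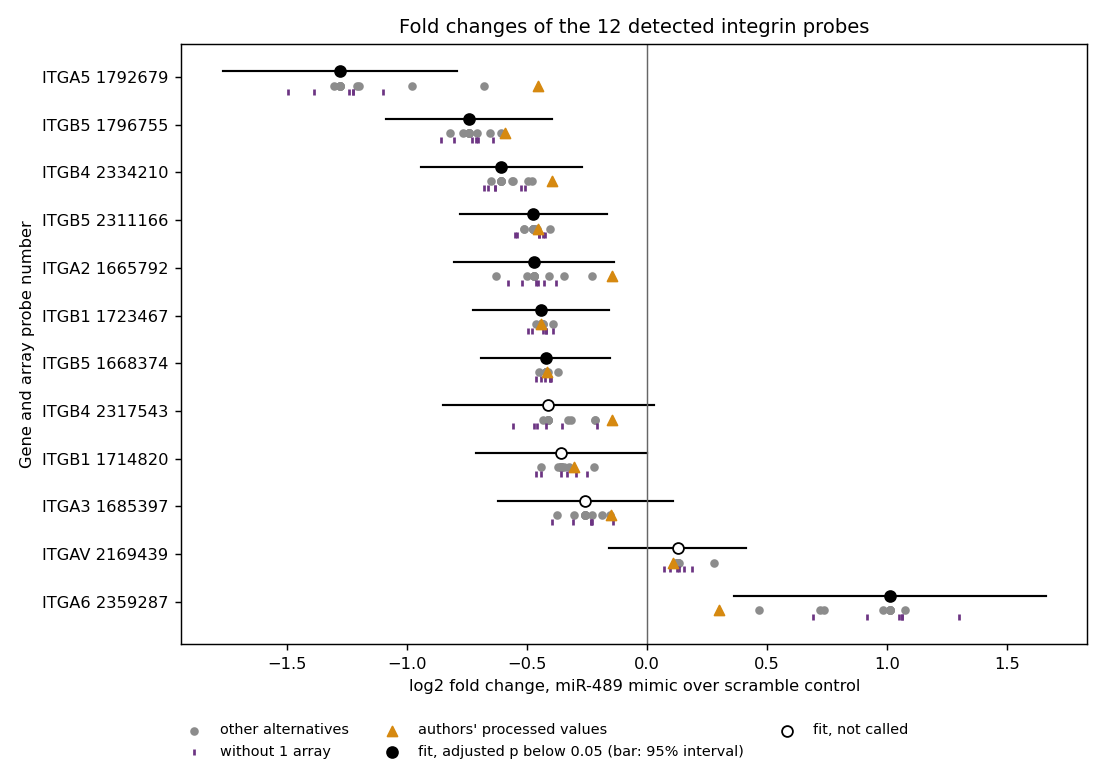
Log2 fold change, mimic over scramble control, of the 12 detected integrin probes (black points with 95% intervals, filled where the adjusted p was below 0.05), with the same value under other settings, without 1 array, and in the authors' processed values. ITGA5 ranges from -1.50 without 1 array to -0.46 in the authors' values, and all values of ITGA6 lie above 0.

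The 11 probes that were detected on no array had intensities of 90.0 to 135, and their lowest detection p was 0.0805. They give no fold change. For ITGB6 and ITGB8 the single probe was among them: the ITGB6 probe read 122, 100.3 and 108 units with the mimic and 102, 102 and 112 units in the scramble control, and the ITGB8 probe 114, 102 and 110.0 units with the mimic and 112, 107 and 103 units in the scramble control. The chains beta6 and beta8, which pair with alphaV and release active TGF-beta, were thus not well above background in either group on this array. The other 9 undetected probes belong to genes with a detected probe: 1 of 2 for ITGA3, 2 of 3 for ITGA6, 2 of 4 for ITGB1, 2 of 4 for ITGB4 and 2 of 5 for ITGB5. In ITGA3, ITGA6 and ITGB5 the detected and undetected probes are annotated to the same transcript. The same holds in ITGB1 for ILMN_1754233 (undetected) and ILMN_1714820 (detected), and in ITGB4 for ILMN_2253707 (undetected) and ILMN_2334210 (detected). A probe at background therefore does not show that the transcript was absent.

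Set out by known receptor pairs, the called changes of partners ran the same way in some pairs and opposite ways in others. For the fibronectin receptor alpha5 and beta1 both chains fell, at -1.28 and -0.44, and for the collagen receptor alpha2 and beta1 both fell, at -0.47 and -0.44. For the hemidesmosome receptor, alpha6 rose by 1.01 while beta4 fell by 0.61 on the log2 scale. For alphaV and beta5, the alpha chain was not called (0.13) and the beta chain fell by 0.42 to 0.74 over its 3 probes. Alpha6 and beta1 also changed in opposite directions (1.01 and -0.44), and alpha3, another partner of beta1, was not called (-0.26). The second detected probes of ITGB1 (-0.36) and ITGB4 (-0.41) were not called. The calls of ITGA2, ITGB1, ITGA6 and the ITGB5 probes ILMN_1668374 and ILMN_2311166 were lost on leaving out single arrays, as given for each gene. All values are differences in transcript level, and the amounts of receptor at the cell surface were not measured.

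Integrin subunits outside the epithelial set were mostly undetected. Of 16 such genes on the array, 9 were detected on no array, among them ITGB3, the beta3 partner of alphaV, and 4 were measured. ITGA10, a collagen-binding alpha chain, was detected on all scramble control arrays and on no mimic array. It was kept through the scramble control arrays alone, so it had to be lower with the mimic and its p supports nothing. Its mean log2 level was 4.70 with the mimic and 5.66 in the scramble control, and it was at least 1.22-fold lower (limma adjusted p = 0.00608), a bound set by the lowest signal among detected probes, but was not called in the authors' processed values (0.0705). ITGB2, the beta chain of leucocyte integrins, had levels of 7.16, 7.22 and 6.95 with the mimic and 7.70, 7.50 and 7.58 in the scramble control and fell, on 1 of its 2 kept probes, by 0.48 on the log2 scale (SE 0.13, adjusted p = 0.0257). Of the 5 leucocyte markers given above, CD14 and CD68 also fell. PTPRC and CD3E were detected on no array and CD79A on 1 scramble control array. The ITGB2 call was lost without mimic array 1 or 3, without scramble control array 1 or 3, and with median scaling (adjusted p from 0.0617 to 0.0936).

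Genes around the integrins were taken from 5 further lists. Over all 10503 genes, 35.7% were called in either direction, and the lists lie on both sides of that share: 20.0% of the matrix ligands, 47.4% of the adhesion adaptors, 20.0% of the adhesion kinases and their effectors, 37.5% of the integrin inhibitors and trafficking genes and 40.0% of the hemidesmosome and tetraspanin genes.

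Of the matrix ligands, 10 of 24 were measured, of which 2 rose, 0 fell and 8 were not called (median log2 fold change 0.31, against 0.03 over all genes). THBS1, the matrix glycoprotein thrombospondin-1, had log2 levels of 11.68, 12.07 and 11.91 with the mimic and 9.36, 9.73 and 9.87 in the scramble control, and rose with a log2 fold change of 2.23 ± 0.17 (limma adjusted p = 0.000222). LAMB1, the laminin beta1 chain, rose by 0.76 ± 0.13 on 1 of its 2 kept probes (adjusted p = 0.00405). In the authors' values, without background correction, with median scaling and with an offset of 50 the list held 4 genes that rose.

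The adaptors that link integrin tails to actin had 6 genes that rose, 3 that fell and 10 not called of 19 measured (median 0.23), and 4 rose when detection on all 6 arrays was required. TNS1, the tail-binding protein tensin-1, and FERMT1, the integrin activator kindlin-1, were detected on all mimic arrays but on only 1 (TNS1) and 2 (FERMT1) of the 3 scramble control arrays. Both would have been kept through the mimic arrays alone, so the filter favoured a rise and their calls carry no weight of their own. They are nevertheless counted among the 6 rises and in the 47.4% given above. The sizes of their changes are also uncertain: 1.30 for TNS1 and 1.17 for FERMT1, against 0.26 and 0.29 in the authors' values. NEDD9, a scaffold of the Cas family, rose by 1.10 ± 0.29 on 2 of its 3 kept probes (0.38 in the authors' values), and it was no longer called with scramble control array 1 (adjusted p = 0.0582) or array 3 (0.0698) left out, or without a filter on dim probes (0.0567). ILK, a pseudokinase that binds beta1 tails, had levels of 10.82, 10.64 and 10.92 with the mimic and 11.66, 11.86 and 11.93 in the scramble control and fell with a change of -1.02 ± 0.14 (adjusted p = 0.00141), and both of its kept probes fell. The remaining calls, named after their values were seen, were rises of the actin-linking proteins ACTN4 (0.70), VCL (0.56) and FERMT2 (0.47) and falls of FHL2 (-0.65) and TLN2 (-0.57).

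Among adhesion kinases and their effectors, 1 gene rose, 3 fell and 16 were not called of 20 measured (median -0.01). DOCK1, which activates the GTPase RAC1 downstream of integrins, had log2 levels of 5.45, 5.70 and 6.18 with the mimic and 7.96, 8.11 and 7.85 in the scramble control, a fall with a log2 fold change of -2.19 ± 0.20 (limma adjusted p = 0.000305, and -0.80 in the authors' values). PTK2, which encodes focal adhesion kinase, fell by 0.84 (SE 0.13, adjusted p = 0.00254) on 1 of its 2 kept probes, and LYN, a kinase of the SRC family, by 0.74 (SE 0.15, adjusted p = 0.00697). APBB1IP, an adaptor that brings talin to integrins, rose by 0.72 ± 0.17 (adjusted p = 0.0131), a call that was lost in the authors' values (0.0548) and without mimic array 3 (0.0518).

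Inhibitors and trafficking factors of integrins had 3 genes that rose, 3 that fell and 10 not called of 16 measured (median -0.06). DAB2, an endocytic adaptor whose cargo includes beta1 integrins, had levels of 9.13, 9.17 and 9.14 with the mimic and 6.08, 5.79 and 5.87 in the scramble control, a rise with a log2 fold change of 3.23 ± 0.13 (limma adjusted p = 4.80e-05, and 1.54 in the authors' values). SNX17, which binds beta1 tails in endosomes and steers the receptor to recycling rather than lysosomes, had levels of 8.23, 8.55 and 8.62 with the mimic and 10.71, 10.48 and 10.30 in the scramble control, and fell with a log2 fold change of -2.03 ± 0.16 (limma adjusted p = 0.000239). RAB11FIP1, a recycling effector of RAB11 and RAB25, fell by 0.96 (SE 0.14) and SHARPIN, an inhibitor that binds alpha tails, by 0.76 (SE 0.18). The SHARPIN call was lost without mimic array 3 (adjusted p = 0.0558) and without array 2 of both groups (0.0718). The other rises, named after their values were seen, were ITGB1BP1, which competes with talin for the beta1 tail (0.64, on 1 of 2 kept probes), and SNX27, an endosomal sorting protein (0.43). Without array 2 of both groups, or without any 1 array other than scramble control array 1, the list held 1 gene that rose.

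Of the hemidesmosome genes and the tetraspanins that bind integrins sideways, 5 were measured. CD151, the tetraspanin bound to alpha3 and alpha6 integrins, had log2 levels of 12.21, 12.22 and 12.20 with the mimic and 12.64, 12.75 and 12.72 in the scramble control and fell with a log2 fold change of -0.49 ± 0.12 (limma adjusted p = 0.0137), and all 3 of its kept probes fell. CD9 rose by 0.51 ± 0.15 (adjusted p = 0.0350). The other 3 were not called. The CD9 call was lost under 7 of 17 alternatives and that of CD151 without array 2 of both groups (adjusted p = 0.0603).

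**Figure D4:**
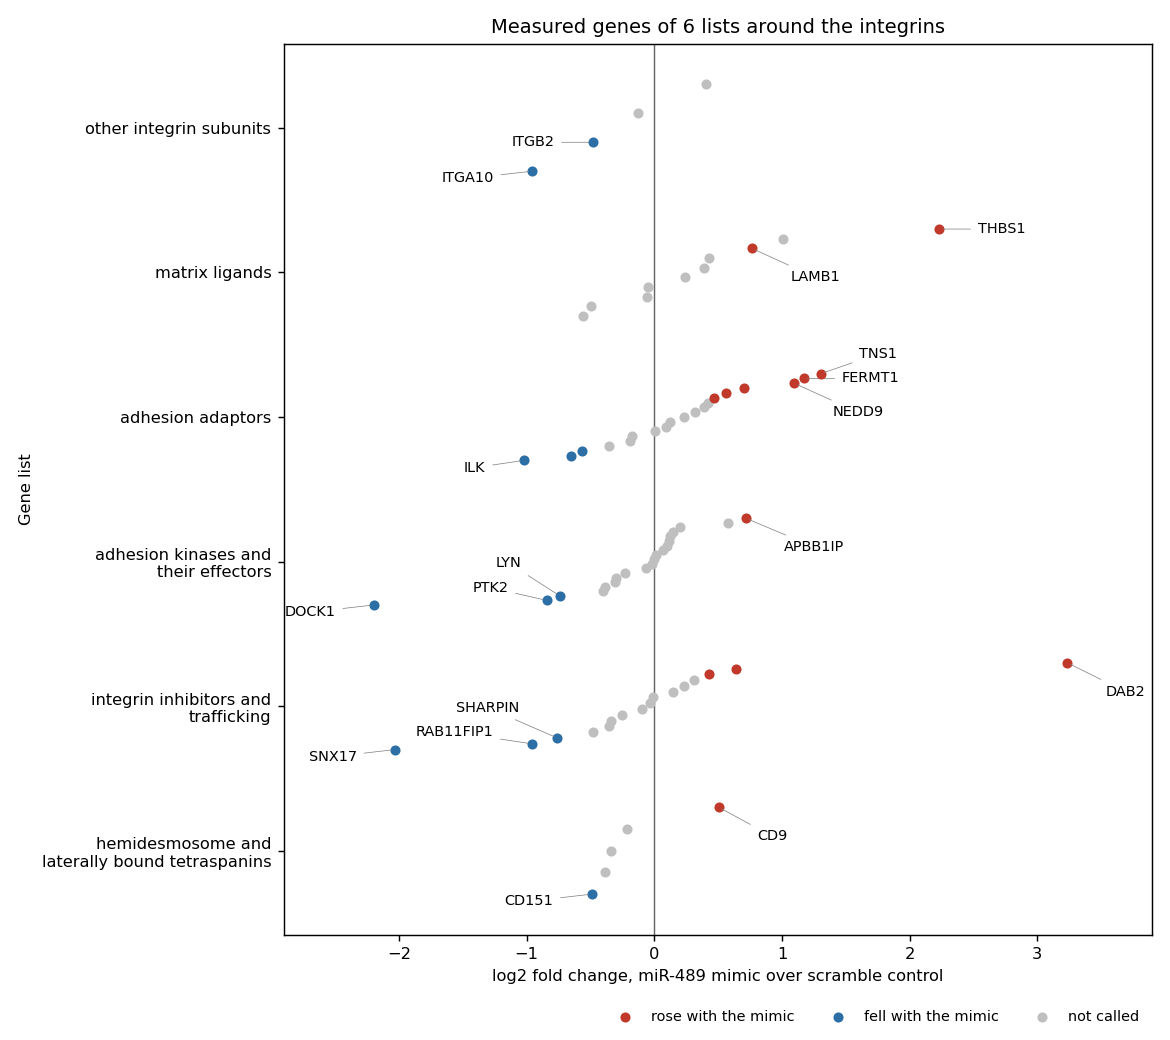
Log2 fold change, mimic over scramble control, of each measured gene in 6 lists around the integrins, with genes that rose in red, genes that fell in blue and genes not called in grey. DAB2 at 3.23 and THBS1 at 2.23 lie farthest to the right, and DOCK1 at -2.19 and SNX17 at -2.03 farthest to the left.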

How the data were processed

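RNA from T47D cells was labelled with biotin and hybridised to 1-colour Illumina arrays, 3 per group, per the labels. Per the file headers, the deposited non-normalized table gives an intensity and a detection p-value for each probe on each array, and the deposited processed intensity values, made with lumi 3.2.2 per the submitters' processing notes, served as an alternative. In the processed values the column of mimic array 1 has a median of 200.783 units, so the scale is linear. The transform and centring behind these values stay unknown. Background was removed by normexp from the detection p-values with an offset of 16 (nec, limma 3.58.1, R 4.3.3), arrays were quantile-normalized and log2 was taken. Probes detected at p below 0.01 on at least 3 of 6 arrays were kept (17104, or 36.1%). The groups were compared with lmFit and eBayes (two-sided), with Benjamini-Hochberg adjustment over all kept probes. The code of the fit was also run on simulated data with independent noise, which cannot test the effect of deviations shared between arrays. Gene names came from the 2016 platform annotation and were updated to RefSeq symbols through Entrez identifiers. Only the 30113 probes annotated to a single symbol were given a gene name. For related genes the kept probe of highest mean was used. From each related list, up to 4 called genes with the largest change were named. The members, lists and alternatives were chosen with earlier results of these data known. Intervals and p-values are limited by the number of arrays. Same-numbered arrays of the groups deviated together at r = 0.36, 0.45 and -0.11, so the numbers were not taken as pairs.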

Additional observations from a re-analysis of the deposited data

How the results depend on the processing

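The calls of ITGA5, ITGB4 (probe ILMN_2334210) and ITGB5 (probe ILMN_1796755) held under all 17 alternatives, and 169 of 204 recomputed values of the 12 integrin probes kept their direction and their side of the threshold, with 0 reversed. With the replicate number as a block, ITGA5 stayed at -1.28 and the counts at 7 lower and 1 higher, while 6680 of all probes were called against 5798 without the block. The calls lost with all arrays or without array 2 of both groups were as follows. ITGA2 was at -0.15 in the authors' values, -0.41 with median scaling, -0.23 without background correction, and -0.47 without a filter and with trend and robust. ITGA6 was at 1.01 without a filter and 0.74 without array 2 of both groups. Probe ILMN_1723467 of ITGB1 was at -0.39 with median scaling and -0.43 without array 2, ILMN_1668374 of ITGB5 at -0.37 and -0.42, and ILMN_2311166 of ITGB5 at -0.40 and -0.52. The number of integrin probes that fell was 3 with median scaling and 4 without array 2, and 0 rose without a filter or without array 2. Under median scaling all kept probes had a median log2 fold change of 0.10, and all calls split into 3676 higher and 2210 lower, against 3002 and 2796.

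Leaving out 1 array gave these ranges: ITGA2 -0.58 to -0.38, ITGA6 0.69 to 1.30, ILMN_1723467 -0.50 to -0.39, ILMN_1668374 -0.46 to -0.40, ILMN_2311166 -0.55 to -0.43, and, not called, ITGB4 ILMN_2317543 -0.56 to -0.21 (the smallest without mimic array 2) and ITGA3 -0.40 (without mimic array 2) to -0.14 (without mimic array 1). The integrin probes that fell numbered 3 to 5 and those that rose 0 to 1, while 1937 to 2849 of all probes rose. In the lists, the other integrin subunits had 0 to 1 higher and 1 to 2 lower, the matrix ligands 0 to 1 lower, the trafficking genes 1 to 2 higher and the hemidesmosome list 0 to 1 higher and 1 to 3 lower.

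Other list counts that moved by over 1.5 times were these. Of the adhesion kinases, 0 rose in the authors' values, and 5 fell there, without background correction and with trend and robust. Of the trafficking genes 5 fell in the authors' values and without background correction, and 1 rose without a filter or without array 2. Of the hemidesmosome list 0 rose without a filter or without array 2, where 0 fell. Of the matrix ligands 4 rose in the authors' values, with median scaling, without background correction and with an offset of 50. Of the other integrin subunits 1 fell in the authors' values, with median scaling and with detection on all 6 arrays. The causes were not tested.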
